A study of Mus musculus with 4 samples.

Results

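The lysyl oxidase, lysyl hydroxylase and prolyl 4-hydroxylase genes, which encode the enzymes that hydroxylate and crosslink collagen, were followed in 4 RNA-seq libraries of mouse forelimb buds at E11.5. They are Lox, Loxl1, Loxl2, Loxl3 and Loxl4, Plod1, Plod2 and Plod3, and P4ha1 and P4ha2, 10 of the 35689 genes in the table. They were chosen by gene family with their knockout and control levels in these libraries already known, so the genotype values of these 10 genes are given as a description and no p-value is read for them. The knockout embryos were PrxCre/+;Smarcc1c/c, homozygous for a conditional allele of Smarcc1 and carrying a Cre transgene that is active in limb bud mesenchyme but not in the overlying ectoderm, blood or endothelium. The control embryos were Prx+/+;Smarcc1c/c, with the same conditional alleles and no Cre. Each library held both forelimbs of 1 embryo, with n = 2 per genotype, and in both genotypes the first embryo had 40 somites and the second 39. Values are TPM (transcript abundance scaled for transcript length and to the same library total), and read depth is unknown. The libraries were made from 310 and 330 ng of RNA for the knockout and 340 and 580 ng for the control.

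These families act on collagen in turn. In the endoplasmic reticulum, prolyl 4-hydroxylase, an enzyme of alpha subunits encoded by the P4ha genes and the beta subunit P4hb, hydroxylates prolines and so stabilises the triple helix, while the lysyl hydroxylases encoded by the Plod genes hydroxylate lysines of the chains. Outside the cell, the lysyl oxidases, copper enzymes, oxidise lysines and hydroxylysines of collagen and elastin to aldehydes that join into crosslinks. At this stage the mouse limb bud is mostly loose mesenchyme in which cartilage condensations are beginning to form.

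The lysyl oxidases share a copper site near the C-terminal end. Its coding sequence is shown because this site defines the family that holds Lox and Loxl2, the tested members with the largest log2 fold changes by genotype. A single match to its pattern of tryptophan, cysteine, tyrosine and 4 histidine residues was found in each of the 5 proteins. The 33 coding bases are given for Loxl1 on chromosome 9, Loxl2 on chromosome 14, Loxl3 on chromosome 6 and Loxl4 on chromosome 19, from the GENCODE M21 transcripts, 5′ to 3′ on the coding strand, with the histidine codons in capitals.
Loxl1: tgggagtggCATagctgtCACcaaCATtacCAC
Loxl2: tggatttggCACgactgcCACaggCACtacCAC
Loxl3: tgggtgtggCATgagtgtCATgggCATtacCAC
Loxl4: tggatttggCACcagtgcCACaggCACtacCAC
Loxl2 and Loxl4 differed at 2 of the 33 bases, and Loxl1 and Loxl2 at 11. Over the whole protein the family falls into a short and a long group. The longest annotated products are 411 residues for Lox and 607 for Loxl1, which aligned to each other with 57.5% identity, and 776 for Loxl2, 754 for Loxl3 and 758 for Loxl4, which aligned to one another with 56.3% to 56.6% identity. Between the groups identity was 30.7% to 45.2%. Over the last 200 residues, which hold the copper site, Lox and Loxl1 were 75.0% identical and Lox and Loxl2 51.7%. The Plod proteins were 58.3% to 60.7% identical and the P4ha proteins 62.7%.

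On the TPM scale, which can be set between genes because it is per length, the hydroxylases stood well above the oxidases. P4ha1 had the highest mean over the 4 libraries, 45.3 TPM, followed by Plod3 at 34.0 TPM, Plod2 at 31.5 TPM, Plod1 at 23.8 TPM and P4ha2 at 15.3 TPM. Plod3, between 31.6 and 36.6 TPM, and Plod2, between 30.5 and 33.6 TPM, overlapped in range, while P4ha1 lay above both in every library. Plod1, between 15.6 and 31.4 TPM, overlapped both Plod2 and P4ha2 in range, and P4ha2 lay below Plod1 in 3 of 4 libraries. The lysyl oxidases stood at 10.6 TPM or less, and their order differed between the genotypes. In knockout buds the order was Lox, Loxl2, Loxl3, Loxl1, with means of 6.92, 5.27, 4.28 and 1.15 TPM. In control buds it was Loxl2, Loxl3, Loxl1, Lox, with means of 10.3, 4.19, 1.98 and 0.755 TPM. In knockout buds the highest Loxl3 value, 4.83 TPM, lay above the lower Loxl2 value, 4.72 TPM, so these neighbours overlapped in range. Within each knockout library Loxl2 was the higher one, with 4.72 against 3.73 TPM at 40 somites and 5.81 against 4.83 TPM at 39 somites. The other neighbours were separated in both genotypes.

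Lox, the founding lysyl oxidase, was the enzyme gene with the largest log2 fold change. It had 7.50 and 6.33 TPM in the knockout buds with 40 and 39 somites, against 0.795 and 0.715 TPM in the control buds. Both knockout libraries were high and both controls were below 1 TPM, so Lox entered the set of genes tested only through the knockouts. Its mean was 6.92 ± 0.823 TPM in the knockout and 0.755 ± 0.0566 TPM in the control (SD, n = 2 each), 9.16 times as high, and its log2 fold change on the log2(TPM + 1) scale, which understates changes of low genes, was 2.17 ± 0.16 (SE). The gene (ENSMUSG00000024529) lies on chromosome 18 of mm10 from 52516067 to 52529867 on the minus strand.

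Loxl2 and Loxl1, paralogs known for crosslinking collagen IV of basement membranes (Loxl2) and for elastic fibre upkeep (Loxl1), stood on the other side. Loxl2 had 4.72 and 5.81 TPM in knockout buds with 40 and 39 somites, against 10.0 and 10.6 TPM in control buds (means 5.27 ± 0.773 and 10.3 ± 0.452 TPM, SD, n = 2 each). The groups did not overlap, and the knockout mean was 0.511 of the control mean, with a log2 fold change of -0.86 ± 0.15 (SE). Loxl1 had 0.977 and 1.31 TPM in knockout buds, against 2.03 and 1.93 TPM in control buds. It was low in all 4 libraries, its groups did not overlap, and its log2 fold change was -0.48 ± 0.17 (SE). Loxl3, known in the mouse for palate and spine development, had 3.73 and 4.83 TPM in knockout buds and 3.32 and 5.06 TPM in control buds. Its ranges overlapped, with the 39-somite library the higher one in both genotypes. Loxl4 was close to absent, with 0.0175 TPM and a listed 0 in the knockout buds, against 0.0340 and 0.0545 TPM in the control buds, and no fold is given for it. Loxl2 lies on chromosome 14 from 69609068 to 69695834, Loxl1 on chromosome 9 from 58287738 to 58313186, Loxl3 on chromosome 6 from 83034173 to 83052562 and Loxl4 on chromosome 19 from 42593982 to 42612813 (mm10).

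**Figure D1:**
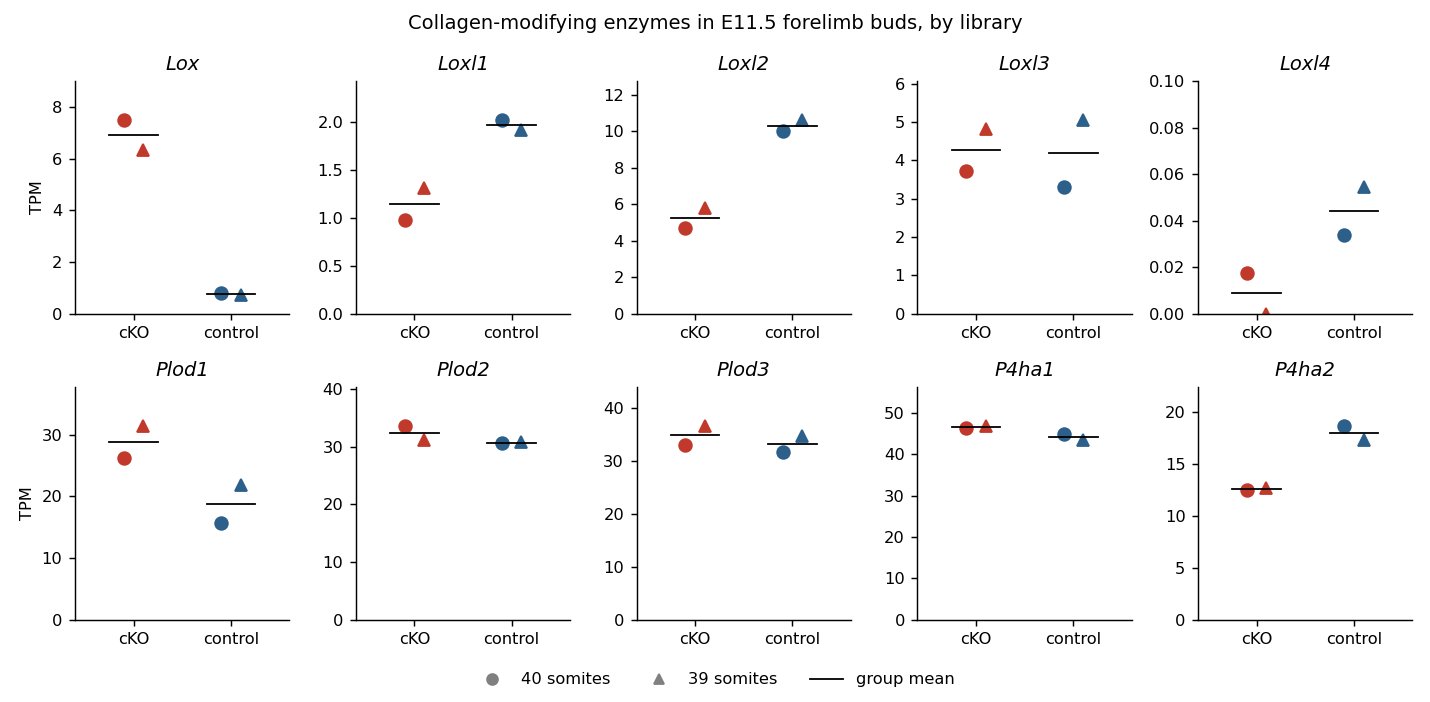
TPM of each of the 10 enzyme genes (y axes start at 0 and differ between panels) in knockout (cKO, left, red) and control (right, blue) forelimb buds, with circles for 40 somites, triangles for 39 somites and a line at each group mean. Lox is high in both knockouts, Loxl1, Loxl2 and P4ha2 are lower in both knockouts than in both controls, and Loxl3 and Plod3 overlap.

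The summed level of the 5 lysyl oxidase genes was nearly the same in both genotypes while its make-up was not. The sum was 16.9 and 18.3 TPM in knockout buds with 40 and 39 somites, against 16.2 and 18.4 TPM in control buds, and the groups overlapped. Lox made up 44.3% and 34.6% of that sum in knockout buds, against 4.92% and 3.89% in control buds. Loxl2 made up 27.9% and 31.8% in knockout buds, against 61.8% and 57.8% in control buds. Control libraries were thus mostly Loxl2 and knockout libraries mostly Lox and Loxl2 together. Loxl3 took between 20.5% and 27.5% in all 4 libraries, with the genotypes overlapping. Shares within a library do not move with the scaling of the library.

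**Figure D2:**
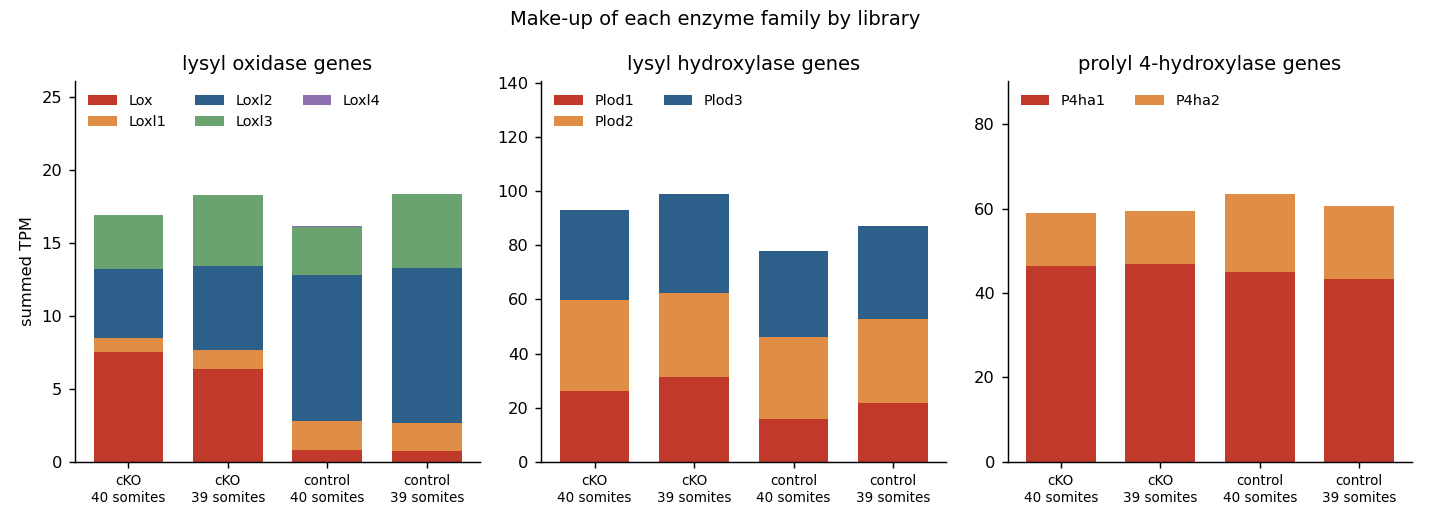
Stacked TPM of the members of each family in each library, with the knockout (cKO) libraries left of the controls and the 40-somite library left of the 39-somite library within a genotype. The lysyl oxidase bars reach 16.2 to 18.4 TPM in all libraries but are Loxl2-rich in controls and Lox-rich in knockouts, the lysyl hydroxylase bars are 92.9 and 99.1 TPM in knockouts and 77.8 and 87.3 TPM in controls, and the P4ha2 band is narrower in knockouts.

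Among the lysyl hydroxylases, Plod1, which acts on helical lysines of fibrillar collagen, had the largest fold. It had 26.2 and 31.4 TPM in knockout buds with 40 and 39 somites, against 15.6 and 21.9 TPM in control buds. Both knockouts lay above both controls, and within each genotype the 39-somite library was the higher one. The means were 28.8 ± 3.66 and 18.8 ± 4.42 TPM (SD, n = 2 each), with a log2 fold change of 0.61 ± 0.19 (SE). Plod2, which hydroxylates the lysines of the telopeptides, had 33.6 and 31.1 TPM in knockout buds and 30.5 and 30.8 TPM in control buds. The knockouts lay barely above the controls, and the log2 fold change was 0.07 ± 0.11 (SE) with a 95% interval from -0.19 to 0.34. Plod3, which also has glycosyltransferase activity on hydroxylysine, had 33.1 and 36.6 TPM in knockout buds and 31.6 and 34.7 TPM in control buds. These overlapped, with a log2 fold change of 0.07 ± 0.12 (SE). Plod1 therefore made up 28.3% and 31.7% of the family's TPM in knockout buds, against 20.1% and 25.1% in control buds. Plod1 lies on chromosome 4 from 147909753 to 147936767, Plod2 on chromosome 9 from 92542223 to 92608428 and Plod3 on chromosome 5 from 136987019 to 136996648.

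P4ha1 and P4ha2 encode alternative catalytic alpha subunits of prolyl 4-hydroxylase. P4ha2 had 12.5 and 12.7 TPM in knockout buds with 40 and 39 somites, against 18.7 and 17.3 TPM in control buds. Both knockouts lay below both controls. The knockout mean was 0.702 of the control mean and the log2 fold change was -0.48 ± 0.12 (SE, n = 2 each). P4ha1 had 46.3 and 46.8 TPM in knockout buds and 44.9 and 43.3 TPM in control buds. Its knockouts lay above its controls, with a log2 fold change of 0.08 ± 0.10 (SE) with a 95% interval from -0.17 to 0.33. P4ha2 made up 21.3% of the pair's summed TPM in both knockout buds, against 29.4% and 28.5% in the control buds with 40 and 39 somites. P4ha1 lies on chromosome 10 from 59323296 to 59373304 and P4ha2 on chromosome 11 from 54100095 to 54131665.

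Both P4ha genes, and in other tissues Plod2 and Lox, are known targets of the hypoxia-inducible factors, and the promoters of the P4ha pair are shown because the log2 fold changes of the pair stood on opposite sides of 0, a contrast that was not tested. The windows run from 250 bases before to 50 bases after the RefSeq start site (GRCm38.p6, plus strand, chr10:59323046-59323345 for P4ha1 and chr11:54100674-54100973 for P4ha2). Capitals mark the core of the hypoxia response element, ACGTG or GCGTG, searched on both strands with overlapping matches allowed. The RefSeq start of P4ha2 lies downstream of the start of the GENCODE gene given above.
P4ha1: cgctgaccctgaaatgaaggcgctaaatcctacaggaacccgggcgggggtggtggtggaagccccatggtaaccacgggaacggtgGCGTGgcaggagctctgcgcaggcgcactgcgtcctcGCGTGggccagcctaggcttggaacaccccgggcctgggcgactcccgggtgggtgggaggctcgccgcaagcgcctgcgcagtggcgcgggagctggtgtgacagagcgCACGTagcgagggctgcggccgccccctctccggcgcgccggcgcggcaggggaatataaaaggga
P4ha2: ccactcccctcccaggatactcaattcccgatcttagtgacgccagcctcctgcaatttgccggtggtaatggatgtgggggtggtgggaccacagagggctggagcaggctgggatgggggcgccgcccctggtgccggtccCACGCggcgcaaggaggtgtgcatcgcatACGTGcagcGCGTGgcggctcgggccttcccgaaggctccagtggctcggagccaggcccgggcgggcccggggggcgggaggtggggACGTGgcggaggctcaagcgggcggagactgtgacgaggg
P4ha1 held 3 cores, starting at -163, -126 and -16 from the start site, and P4ha2 held 4, starting at -107, -78, -69 and 11. Both windows were 70.3% G and C. Of 32851 promoter windows of the same length, 43.8% held at least 1 core, 8.93% held 3 or more and 3.86% held 4 or more. These shares are not matched for G and C content, and each core form holds a CG. They therefore do not show whether the P4ha windows are rich in cores for their composition. Windows were at hand for 5 of the 10 genes, and Plod3 held 4 cores, Plod1 2 and Loxl4 1. A match describes the letters of the window and does not show binding.

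Only 9 of the 10 genes could be tested, Loxl4 being below 1 TPM throughout, though its values did not overlap either. For 7 of the 9 tested, Lox, Loxl1, Loxl2, Plod1, Plod2, P4ha1 and P4ha2, the knockout and control values did not overlap. Of all 12809 genes tested, 43.9% were separated in one direction or the other. Of the 9 genes, 1, Lox, was past a Benjamini-Hochberg adjusted p of 0.05 in limma, against 1.3% of all genes tested. The genotype contrast was known when the genes were chosen, so nothing is read from that share. With no filter on low values no gene of the table passed. With stage as a block 533 of the 12809 genes passed in limma, Lox, Loxl2 and Plod1 among them, and nothing is read from that either. The differences pointed the same way at 40 and at 39 somites for 8 of the 9 genes. For the 7 separated genes this had to be so, since both knockouts lay on one side of both controls, and nothing is read from the count. For Lox the knockout minus control difference in log2(TPM + 1) was 2.24 at 40 somites and 2.10 at 39 somites, and for Loxl2 it was -0.94 and -0.77. Plod1 gave 0.71 and 0.50, P4ha2 -0.54 and -0.42, and Loxl3, the exception, 0.13 and -0.06.

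**Figure D3:**
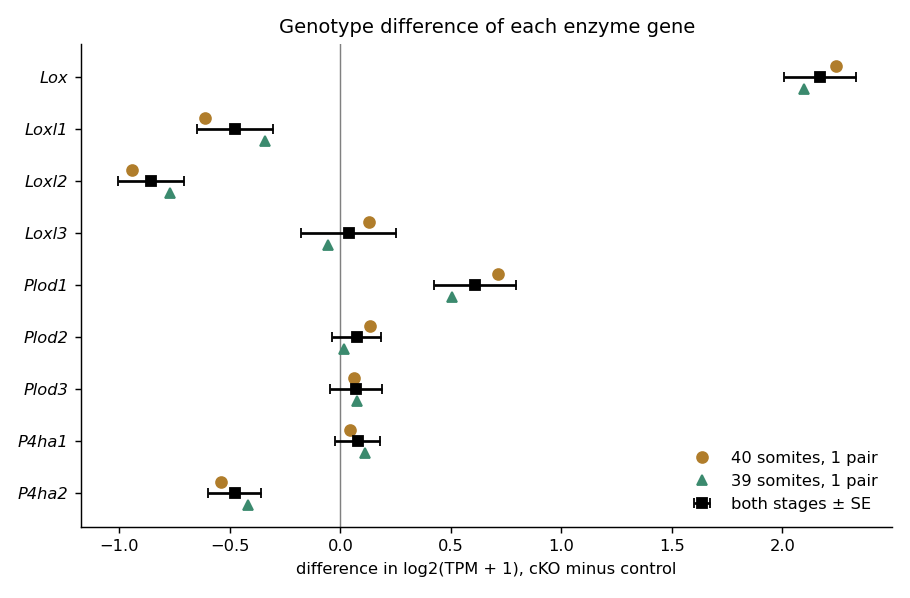
Difference in log2(TPM + 1), knockout (cKO) minus control, for the 9 enzyme genes with enough signal, as the estimate over both stages with its SE (black squares) and as the single pair at 40 somites (circles) and at 39 somites (triangles). Lox lies at 2.17, Loxl2 at -0.86, and Plod2, Plod3 and P4ha1 lie at 0.07, 0.07 and 0.08.

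A second contrast in the same libraries, 40 against 39 somites with genotype in the model, had no part in the choice of the genes. In limma 0 of the 9 genes passed a Benjamini-Hochberg adjusted p of 0.05 for stage, where 0.164% of all genes tested did. At an unadjusted p under 0.05 there were 2 of 9, a share near the 21.6% of all genes tested, so no stage difference is read from it. For these, Plod1 and Loxl3, the values at 40 minus 39 somites are given as they stand. Plod1 had a log2 difference of -0.36 ± 0.09 (SE; 26.2 and 15.6 TPM at 40 somites, against 31.4 and 21.9 TPM at 39 somites; limma adjusted p = 0.170), and Loxl3 one of -0.40 ± 0.12 (SE; 3.73 and 3.32 TPM, against 4.83 and 5.06 TPM; limma adjusted p = 0.190). For Lox the stage difference was 0.14 ± 0.13 (SE; limma adjusted p = 0.557). Ddx3y, a Y-linked gene, stood at 0.0498 and 0.0130 TPM in the 40-somite libraries (knockout and control) and at 28.3 and 30.2 TPM in the 39-somite libraries. Stage and sex therefore cannot be told apart in this contrast, whereas both are balanced between the genotypes.

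The proteins that work beside these enzymes in the endoplasmic reticulum did not pass for genotype in limma, with 0 of 16 tested past the threshold (0.812% of all genes tested were higher and 0.492% lower). Before adjustment 3 of the 16, all higher, had a p under 0.05, where 13.7% of all genes tested did, 6.78% higher and 6.89% lower, and the list's median log2 fold change was 0.04, where the median of all genes tested was 0.01. P4hb, the beta subunit that P4ha1 and P4ha2 need, had 401.1 and 420.8 TPM in knockout buds and 376 and 349 TPM in control buds (log2 fold change 0.18 ± 0.11, SE; limma adjusted p = 0.568). P4ha3, the third and least expressed alpha subunit gene, had 3.12 and 2.02 TPM in knockout buds, against 0.902 and 1.01 TPM in control buds (0.85 ± 0.20; limma adjusted p = 0.143). Its 40-somite control was below 1 TPM, so P4ha3 entered the set of genes tested only with the knockouts, where it was high. Without the 39-somite knockout it was past the threshold (1.07; limma adjusted p = 0.00285). A fit without a knockout library takes its spread from the 2 controls alone and assumes that the lone knockout varies like them. Such fits passed 501 genes without the 39-somite knockout and 646 without the 40-somite knockout, against 167 with all libraries, so a call gained there is not particular to the gene. P3h2, a prolyl 3-hydroxylase gene, had 4.49 and 5.30 TPM in knockout buds, against 2.84 and 2.91 TPM in control buds (0.60 ± 0.15; limma adjusted p = 0.164). Ppib, which encodes cyclophilin B, had 534 and 544 TPM in knockout buds, against 439 and 442 TPM in control buds (limma adjusted p = 0.315), and P3h3, another prolyl 3-hydroxylase gene, 34.5 and 40.4 against 23.3 and 34.0 TPM (limma adjusted p = 0.455).

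Of 4 genes tested for removal of the procollagen propeptides, 0 passed in limma, and 1 of the 4, which was lower, had a p under 0.05 before adjustment, against 6.89% of all genes lower, while the median was 0.10. Adamts3, a procollagen N-proteinase gene, had 1.55 and 1.09 TPM in knockout buds, against 3.09 and 2.77 TPM in control buds (-0.77 ± 0.18, SE; limma adjusted p = 0.130). Without the 40-somite knockout, in a fit with the controls' spread alone, the value was -0.91 (limma adjusted p = 0.0157). Pcolce2, an enhancer of the C-proteinase, had 4.53 and 5.72 TPM in knockout buds and 2.64 and 4.28 TPM in control buds (limma adjusted p = 0.435). Bmp1, the C-proteinase itself, and its enhancer Pcolce had log2 fold changes of -0.04 ± 0.13 and 0.24 ± 0.23 (SE), with overlapping groups.

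The substrates and docking partners of the oxidases held the only partner genes that passed. Before adjustment 6 of the 16 tested were higher and 4 lower at a p under 0.05 in limma, where 6.78% of all genes tested were higher and 6.89% lower. The list's median log2 fold change was 0.05. All the partner lists were chosen with earlier results of these data known, so nothing is read from their shares. After adjustment 2 rose, 1 fell and 13 did not pass, where 0.812% of all genes tested were higher and 0.492% lower. With stage as a block 5 were higher and 1 lower, without the 40-somite knockout 5 were higher and 3 lower, without the 40-somite control 2 were higher and 0 lower, and without the 39-somite control 1 was higher and 0 lower. Col1a1, the alpha1 chain of type I collagen, rose to 45.1 and 58.5 TPM in knockout buds, against 9.61 and 10.7 TPM in control buds (2.23 ± 0.16, SE; limma adjusted p = 0.00694). Postn, encoding periostin, a matrix protein that binds BMP1 and through it promotes activation of Lox, rose to 5.37 and 4.95 TPM, against 1.47 and 0.723 TPM (1.58 ± 0.21; limma adjusted p = 0.0346). Its 39-somite control was below 1 TPM, so Postn entered the set of genes tested only with the knockouts, where it was high. Nothing further is read from its call. Col27a1, a fibrillar collagen of cartilage, fell to 4.71 and 4.97 TPM in knockout buds, against 9.56 and 9.65 TPM in control buds (-0.86 ± 0.13; limma adjusted p = 0.0465). Without the control with 39 somites the adjusted p was 0.0752 for Postn and 0.139 for Col27a1, and without the control with 40 somites it was 0.135 for Col27a1. Eln, the elastin gene, a substrate of Lox and Loxl1, had 1.50 and 1.39 TPM in knockout buds, against 3.06 and 3.70 TPM in control buds, and did not pass (-0.84 ± 0.16; limma adjusted p = 0.0910). Without the 40-somite knockout, again with the controls' spread alone, the value was -0.87 (limma adjusted p = 0.0248).

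**Figure D4:**
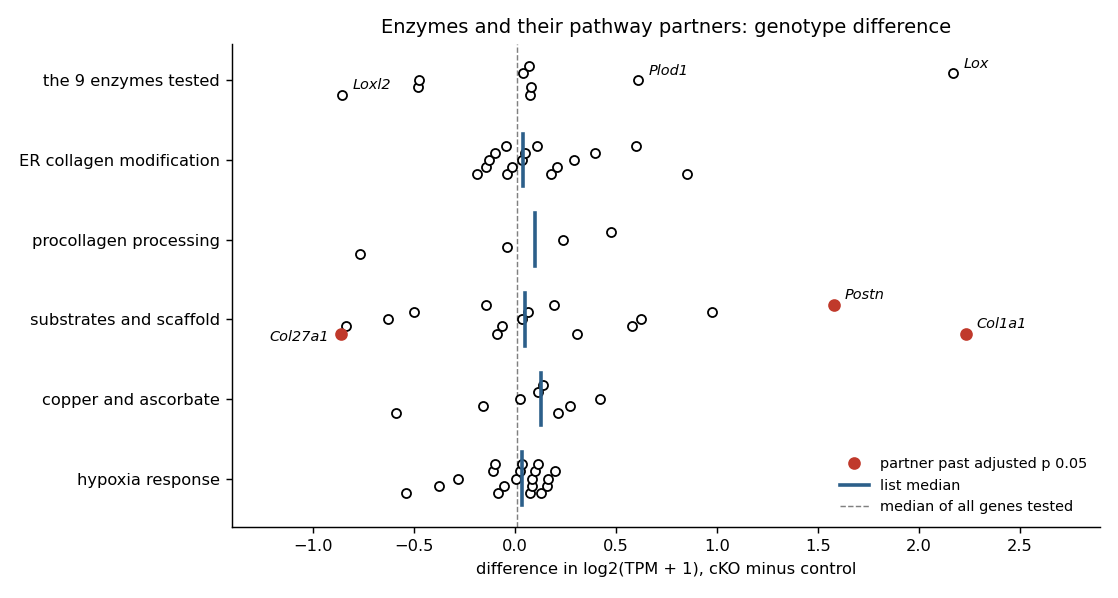
Difference in log2(TPM + 1), knockout (cKO) minus control, for the 9 enzyme genes and for the tested genes of 5 partner lists, 1 point a gene, with filled points past a limma adjusted p of 0.05 (marked in the partner lists only), a bar at each list's median and a dashed line at the median of all genes. Lox and Col1a1 lie farthest to the right, at 2.17 and 2.23, and the hypoxia response genes lie between -0.54 and 0.20.

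The lysyl oxidases need copper, and the hydroxylases need iron and ascorbate. Of 8 tested genes of copper and ascorbate supply, 0 passed in limma, and before adjustment 1 higher gene and 1 lower gene had a p under 0.05, 2 of 8 against 13.7% of all genes, with a median of 0.13. Slc23a2, an ascorbate transporter gene, had 8.07 and 8.65 TPM in knockout buds and 5.26 and 6.81 TPM in control buds (0.42 ± 0.16, SE; limma adjusted p = 0.328). Slc2a3, whose product also carries dehydroascorbate, had 106.6 and 72.0 TPM in knockout buds and 160.0 and 109.8 TPM in control buds (-0.59 ± 0.24; limma adjusted p = 0.363, and 0.0235 with stage as a block). Without the 40-somite knockout, with the controls' spread alone, the value was -0.87 (limma adjusted p = 0.00168). The copper importer Slc31a1 and the copper chaperone Atox1 had log2 fold changes of 0.27 ± 0.13 and -0.16 ± 0.14 (SE). Of 19 tested hypoxia response genes, 0 passed in limma, with a median of 0.04. Before adjustment 3 of the 19, all lower, had a p under 0.05 in limma, where 13.7% of all genes did, 6.89% lower. The 3 were Hk2 (a hexokinase), Pfkfb3 (a regulator of glycolysis) and Pdk1 (a pyruvate dehydrogenase kinase), at -0.54 ± 0.13, -0.38 ± 0.15 and -0.28 ± 0.11 (SE; limma adjusted p = 0.143, 0.337 and 0.352). Higd1a, a mitochondrial protein gene induced by hypoxia, had a log2 fold change of 0.20 ± 0.11 (SE).

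Smarcc1, the targeted gene, which encodes a core subunit of the BAF remodelling complex, had 46.2 and 38.4 TPM in knockout buds, against 112 and 119.6 TPM in control buds (limma adjusted p = 0.0117). Of 13 limb mesenchyme markers, 2 (Pdgfra and the hindlimb gene Tbx4) were higher in limma, 0 lower and 11 did not pass, with a median of -0.18. Of all genes tested 0.812% were higher and 0.492% lower, and at an unadjusted p under 0.05 the shares were 6.78% and 6.89%. Before adjustment 4 higher and 2 lower had a p under 0.05, and without the 40-somite control 0 of the 13 passed, without the 39-somite control 1. Prrx1, a marker of this mesenchyme, had 130 and 140 TPM in knockout buds, against 188 and 201 TPM in control buds (-0.53 ± 0.11, SE; limma adjusted p = 0.101), and the forelimb gene Tbx5 had 31.9 and 40.2 TPM, against 32.1 and 43.1 TPM. Of 7 tested genes listed for loose connective tissue and tendon, 3 higher and 1 lower had a p under 0.05 in limma before adjustment, where 13.7% of all genes did. The marker lists, too, were chosen with earlier results of these data known, so nothing is read from their shares. After adjustment 2 (Osr2 and Lum) were higher, 0 lower and 5 did not pass, with a median of 0.14. Summed levels over the 10 listed genes were 215.5 and 260.5 TPM in knockout buds, against 170.0 and 168.9 TPM in control buds, with Tcf21 at 0 throughout. With either control left out 0 of the 7 passed. Scx, a tendon marker, had 15.1 and 24.2 TPM in knockout buds, against 33.4 and 31.0 TPM in control buds. Its log2 fold change was -0.72 (limma adjusted p = 0.222), and Dcn and Tcf4 had 0.08 and 0.09. Tcf4 here is the gene of an E protein, whereas the connective tissue marker also called Tcf4 is Tcf7l2, which was not listed. Tcf4 counts among the 5 and in the summed levels, at 90.9 and 95.9 TPM in knockout buds and 87.4 and 88.4 TPM in control buds. No gene passed in limma among 8 of cartilage condensations (median 0.01), 12 of surface ectoderm (-0.42), 10 of endothelium (0.12), 10 erythroid (0.34), 6 of myoblasts (0.35), 7 of macrophages (-0.37) and 5 of Schwann cells and neurons (-0.17). Before adjustment, 2 erythroid genes and 1 myoblast gene that were higher, and 4 ectoderm genes and 1 macrophage gene that were lower, had a p under 0.05, where 13.7% of all genes did. That macrophage gene was below 1 TPM in both knockout buds and entered the set tested only through the controls. With stage as a block 3 ectoderm genes were lower and 1 erythroid gene higher in limma, and without the 40-somite knockout 5 ectoderm genes were lower. Some fits with a library left out also passed 1 or 2 genes of the cartilage, erythroid, myoblast and macrophage lists. All 12 ectoderm genes were below 0 in log2 fold change. Their summed levels were 498.6 and 315 TPM in knockout buds, against 636.8 and 417.5 TPM in control buds, and overlapped. All 10 erythroid genes were above 0, with 12014 and 11538 TPM in knockout buds, against 9595 and 10257 TPM in control buds. All 6 tested myoblast genes were also above 0, and all 7 of macrophages and 5 of Schwann cells and neurons below 0. Over whole lists these sums did not overlap, with 41.5 and 44.4 TPM in knockout buds against 35.7 and 27.1 TPM in control buds for myoblasts. They were 21.1 and 17.0 against 22.5 and 30.5 TPM for macrophages, and 19.7 and 17.7 against 23.1 and 22.5 TPM for Schwann cells and neurons. The part that cell make-up has in the enzyme values was not tested. In whole buds, fewer cells of a type and less RNA per cell cannot be told apart. On mm10, exons of Loxl3 overlap those of Htra2 on the other strand over 11.6% of their bases and exons of Plod3 those of Znhit1 over 11.7%. Exons of Loxl2 likewise overlap those of Gm27177 over 5.57% and exons of Plod2 those of Gm38391 over 6.42%. Whether the counting used strand is not given in the sources used here, so these values may hold reads of the neighbour. Log2 fold changes were -0.11 ± 0.15 for Htra2 and 0.23 ± 0.15 for Znhit1 (SE), and none is given for the other neighbours.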

How the data were processed

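Forelimb buds of 4 mouse embryos were profiled, 2 knockout and 2 control, with 1 library per embryo. TPM values for 35727 Ensembl gene identifiers, scaled to an equal total per library, make up the file that the authors deposited. Salmon 1.9.0 and the mm10 build are named in the submitters' processing notes, while the sources used here do not give the transcript set, strand setting or gene summing. TPM keeps no depth, so no count test was run, and precision rests on the spread between embryos. An exact permutation test of 2 against 2 cannot give a two-sided p below 0.333. One column name differs from its sample's title by a single extra letter and was matched to it.

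Identifiers were matched to GENCODE M21 symbols (99.1%), and 38 repeated symbols were summed. Genes with at least 1 TPM in at least 2 libraries, 12809 in all, entered limma (version 3.58.1, R 4.3.3, mean-variance trend) on the log2(TPM + 1) scale, with Benjamini-Hochberg adjustment over all of them at 0.05, for genotype without covariates and for stage with genotype. The procedure was run on simulated data with independent noise for each gene and no stage or sex effect shared between genes. Stage and sex do differ within each genotype here, so that run does not cover them. The enzyme genes and the lists of partner and marker genes were chosen with earlier results of these data known. Each list is described by its counts and median, with no test of the list. Named partners are P4hb and, per list, up to 4 genes with the smallest p. Osr2, Lum, Scx, Dcn, Tcf4, Pdgfra, Tbx4, Prrx1, Tbx5, Htra2 and Znhit1 were named after their values were seen. Slc2a1 is in both the ascorbate and the hypoxia list. Ero1a was read under its older symbol Ero1l. Stage pairs 1 knockout with 1 control library, and their deviations from the genotype means had a Pearson correlation of 0.218 and a Spearman of 0.364 over genes, which are not independent. Coding sequences come from GENCODE M21 and promoters from RefSeq (GRCm38.p6). Identities are from global alignments with BLOSUM62 in Biopython 1.88. Alternatives were other pseudocounts, filters, scalings, variance models, thresholds, a stage block and each library left out.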

Additional observations from a re-analysis of the deposited data

Results flagged for a closer look

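Loxl3 was the only enzyme gene whose knockout minus control difference in log2(TPM + 1) changed sign between the stages, at 0.131 at 40 somites and -0.056 at 39 somites, with 1 pair of libraries at each. Among the named partners the same held for Pcolce (0.480 at 40 somites and -0.00755 at 39), Bmp1 (0.088 and -0.163) and Atox1 (0.0823 and -0.399). These differences between the stages were not tested, since no residual degree of freedom is left, and sex differs with stage.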

How the results depend on the processing

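Without a filter on low values limma passed 0 genes for genotype (2338 at an unadjusted p under 0.05) and 0 for stage (2788). The genotype count of 167 (104 higher, 63 lower) was 533 with stage as a block (266 higher, 267 lower) and 316 at a threshold of 0.1. It was 646 without the 40-somite knockout, 501 without the 39-somite knockout, 59 without the 40-somite control and 50 without the 39-somite control. The stage count of 21 was 12 without the variance trend and 13 without the genotype term. Stage fits with a library left out have no residual degrees of freedom and were not run. For Lox the log2 fold change was 3.03 at a pseudocount of 0.1 and 1.05 at a pseudocount of 5. Loxl1 gave -0.75 and -0.18 at the same pseudocounts, and at a pseudocount of 5 Loxl2 gave -0.58 and P4ha2 -0.38, the pseudocount acting by construction on low values. Left-out libraries moved Loxl3 from -0.21 to 0.28, Plod3 from -0.002 to 0.14 and Plod1 from 0.38 to 0.84. Without the filter the calls of Smarcc1, Col1a1, Postn and Col27a1 were lost (limma adjusted p = 0.111, 0.0915, 0.191 and 0.198). Other call changes of named genes not given above were for Postn at a pseudocount of 0.1 and under both scalings, and Col27a1 at a filter of 5 TPM. At that filter the median of the list of endoplasmic reticulum partners was -0.014 and that of substrates 0.13. With a library left out the lists' medians ran from 0.022 to 0.10 for those partners, 0.042 to 0.13 for substrates, -0.15 to 0.35 for procollagen processing, -0.046 to 0.093 for the hypoxia response and -0.054 to 0.24 for copper and ascorbate supply. The cause of these shifts was not tested.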
